A study of Mus musculus with 10 samples.

Results

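Stromal cells sorted from the marrow of a transplanted femur by a reporter meant to mark its outer surface, the periosteum, were compared with the stem cells of the periosteum in bones that were never transplanted. The comparison used 7 of the 10 RNA sequencing libraries of the series, 4 labelled as marrow grafts at 5 months (graft BM-MSC 1 to 4) and 3 labelled as periosteum of the host at steady state (P-SSC 1, 2+5 and 4). The members were chosen by these labels and not by a measured value, though with earlier results of these data known. The remaining 3 libraries, marrow stroma at steady state, entered the fit but are not described.

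Donor femurs of the graft group came from mice labelled transgenic (POSTN-CRE), in which the promoter of the periostin gene Postn drives a Cre recombinase that works only in the presence of tamoxifen and switches on the red reporter Tomato. The femurs were placed under the skin of recipient mice, tamoxifen was given to the recipients soon after surgery (treatment label, Tamoxifen induction), and CD51+CD200+Tomato+ cells were sorted from the marrow of the graft. The P-SSC group held CD51+CD200+ cells that lacked the blood and endothelial markers CD45, Ter119 and CD31, from the periosteum of Wild-type mice with the treatment label none. The labels give no age for either group. Library 2+5 pooled a pair of mice, and the labels describe the P-SSC libraries as re-analysed from another series. Tissue, genotype, tamoxifen, the Tomato gate, transplantation and the 5 months after it all differ between the groups, and their effects cannot be told apart. Any effect of age, or of the series that the P-SSC libraries came from, cannot be told apart from these either. Postn is used by several cell types, so Cre under its promoter may also mark cells outside the periosteum. The labels name the libraries of a group as separate samples. The p-values measure the spread between libraries within all 3 groups of the fit, the steady-state marrow libraries included.

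The periosteum is the fibrous membrane that wraps a bone, and its skeletal stem cells build bone and cartilage when the bone is injured. Mesenchymal stem cells of the marrow lie along its blood vessels, make the chemokine and growth factors that retain and feed blood stem cells, and carry regulators of both the fat and the bone lineage. Cells of the periosteum sit in a dense matrix of collagen fibrils, proteoglycans and elastic microfibrils, whereas the marrow is a soft tissue with little of it. In both tissues CD51 is integrin alpha V (Itgav) and CD200 is a surface glycoprotein.

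Each library held between 15415421 and 25223295 reads over 15078 genes, of which 13644 with a mean value of at least 10 were tested. At this depth a count of 3 reads makes up 0.119 to 0.195 ppm of a library's reads, a limit that covers counting error only. Values are normalised read counts, and differences are given as log2(value + 1), graft BM-MSC minus P-SSC, with p-values of limma after Benjamini-Hochberg adjustment over all genes tested. A difference is called at an adjusted p under 0.05 and is printed ± its standard error. Where a whole group is at 0 the size of the difference depends on the 1 that is added, so a fold is then given as a bound, computed with that group at 3 reads per library. The graft libraries listed between 22.6% and 38.3% of genes at 0 and the P-SSC libraries between 13.3% and 19%. Genes with over 65% GC stood higher relative to genes of 50 to 60% GC in the 4 graft libraries, by 1.69 to 2.80 on the log2 scale, and in P-SSC 4, by 1.52, while in P-SSC 1 and P-SSC 2+5 they stood lower (-1.68 and -1.64). P-SSC 4 was thus the P-SSC library with the GC profile of the grafts, and each result was computed again against P-SSC 4 alone, with P-SSC 4 as a group of its own in the same fit.

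The genes of the sort were examined before the rest. Cd200 was 2490.4 to 3277 in graft BM-MSCs and 1372 to 2088 in P-SSCs. The groups did not overlap, but the difference did not pass the test (log2 difference 0.76 ± 0.25, adjusted p = 0.063). Itgav was 398, 218, 82.6 and 684 in the graft libraries and 207, 84.1 and 1095 in the P-SSC libraries, with overlap. Ptprc, which codes for the leukocyte antigen CD45 that the sort excluded, was 0, 0, 196 and 2.59 in the graft libraries and 0 in all 3 P-SSC libraries. Postn itself was 0, 0, 0 and 235 in the graft libraries and 21259, 24829 and 16558 in the P-SSC libraries, so 3 of the 4 libraries sorted by a Postn-driven reporter listed no read of it at 5 months.

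Marker genes of other cells differed between the groups. The calls among them stand beside 6.08% higher and 12% lower over all genes tested. The sum of 10 red cell markers was 123 to 1908 ppm in graft BM-MSCs against 10.4 to 75.2 ppm in P-SSCs, and 4 of the 10 were called higher. The sum of 11 neutrophil markers was 410.5 to 7544 ppm against 1.81 to 12.4 ppm, and 7 of the 11 were called higher. Graft BM-MSC 3 led this sum, with the neutrophil marker S100a8 at 40754. Macrophage markers overlapped between the groups (101.5 to 869 against 22.3 to 114 ppm), and none of 9 was called. Osteoclast markers summed to 75.1 to 115 ppm in grafts and 14.5 to 21.4 ppm in P-SSCs, but most of the graft sum was Mmp9, which this list holds. Markers of Schwann cells, which wrap nerve fibres, summed to 375 to 794 ppm in grafts and 1131 to 1719 ppm in P-SSCs. Of these 7 markers 6 were called lower, with the regulator Sox10 at 0 in all 4 graft libraries. The other, S100b, was called higher, 551 to 1562 in grafts and 242 to 388 in P-SSCs (log2 difference 1.49 ± 0.42, adjusted p = 0.033). Pmp22 had the highest value of the list in each library compared, 3269 to 11546 in grafts and 20160 to 20909 in P-SSCs. Muscle markers overlapped as a sum (21.2 to 124 against 58.3 to 145 ppm), although 5 of 7 were called lower, and Acta1, Ckm, Pax7 and Myod1 were at 0 in every graft library. Of the endothelial markers, Tek was 0 in all 4 graft libraries and 6869, 4820.2 and 3254 in the P-SSC libraries, whereas Cdh5 was at most 58.6 in any P-SSC library and Emcn, Tie1 and Stab2 were at 0 in all 7. The part of other cells in the results was not tested, also where a marker value is given beside a result. In sorted bulk samples, fewer cells of a type and less RNA of a gene per cell cannot be told apart.

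**Figure D1:**
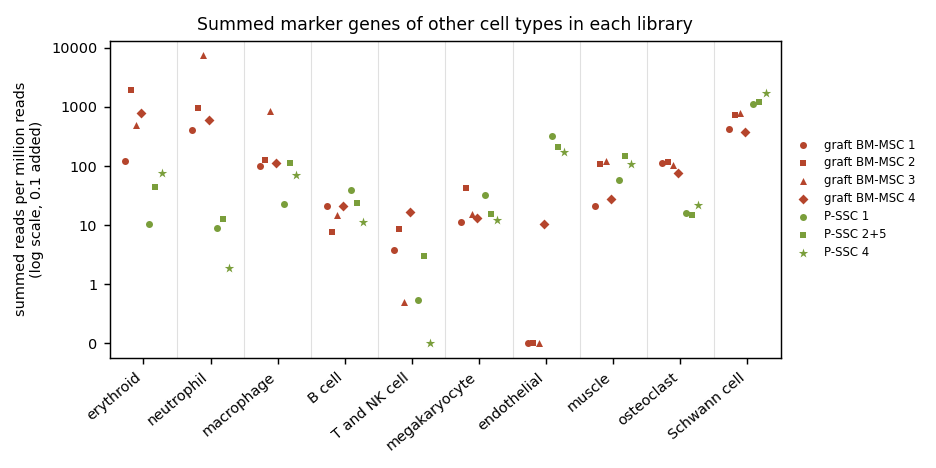
Reads of the marker genes of 10 other cell types, summed and given in ppm of the reads of the library on a log scale with 0.1 added, in each graft BM-MSC and P-SSC library (1 point per library). Neutrophil sums of the 4 graft libraries (410.5 to 7544 ppm) lie above those of the 3 P-SSC libraries (1.81 to 12.4 ppm). Endothelial sums lie below, and in P-SSCs they rest mainly on Tek (normalised values 3254 to 6869, with Cdh5 at most 58.6).

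Of the 13644 genes tested, 830 were higher in graft BM-MSCs, which is 6.08% of them, and 1634 were lower, which is 12%. Against P-SSC 4 alone 382 genes (2.8%) were higher and 699 (5.12%) were lower, in a comparison that shares the graft libraries and P-SSC 4 with the first. Of the 830 higher genes 345 were also called against P-SSC 4 alone (41.6%), and of the 1634 lower genes 634 were (38.8%), while no gene was called in opposite directions. The balance of the directions depended on the scaling. The median difference over all genes was -0.47, and -0.61 against P-SSC 4 alone. Quantile normalization moved it to -0.02 and gave 1247 higher and 1241 lower genes, while a correction for GC content moved it to 0.28 and gave 1567 higher and 985 lower genes. A fit of the 7 compared libraries, without steady-state marrow, gave 531 higher and 1165 lower genes. With P-SSC 1 left out there were 529 higher and 1054 lower genes, and with P-SSC 4 left out there were 1429 higher genes. The call held in each of the 7 fits that left out 1 library for 485 of the higher genes (58.4%) and for 961 of the lower genes (58.8%). Of the lower genes, 551 were listed at 0 in all 4 graft libraries and 696 in none.

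**Figure D2:**
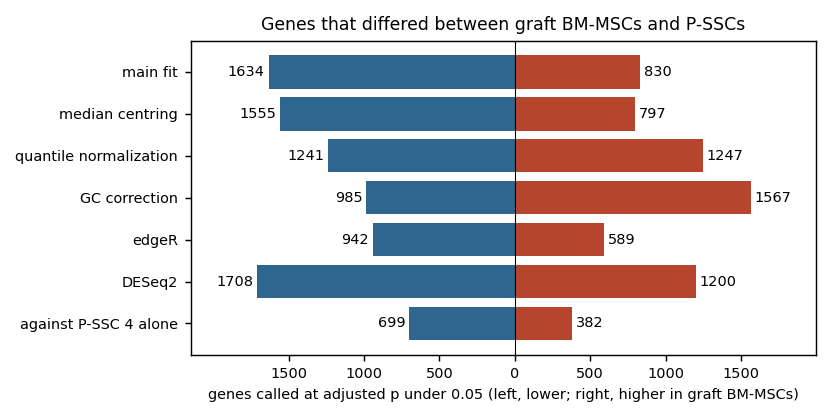
Numbers of genes called lower (left) and higher (right) in graft BM-MSCs against P-SSCs at an adjusted p under 0.05, for the main fit, for other scalings and count models, and against P-SSC 4 alone. The main fit called 1634 lower and 830 higher genes, and the GC correction is the setting plotted in which higher genes outnumber lower ones most, 1567 against 985.

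The 12 largest rises among genes that met the naming rule were Kng1 (13.38), Adipoq (13.29), Serpina3g (12.78), Serpina12 (12.29), Esm1 (12.23), Serpina3f (11.75), Wdr86 (11.55), Il1rn (11.06), Hp (10.93), Slc26a7 (10.72), Kng2 (10.45) and Akr1c12 (10.32). The rule asked for a call, a mean of at least 100, no overlap between the groups and all 4 grafts on 1 side of P-SSC 4. For genes named by it, here and below, the lack of overlap follows from the rule and is not a separate result. Adipoq, the hormone adiponectin, was 53102, 34596, 34855 and 76228 in graft BM-MSC 1 to 4 and 2.08, 7.64 and 2.91 in P-SSC 1, 2+5 and 4 (log2 difference 13.29 ± 0.41, adjusted p = 5.8e-08). Esm1, the secreted proteoglycan endocan, was 22195, 10238, 15151 and 18196 in the graft libraries and 1.04, 1.27 and 6.79 in the P-SSC libraries (log2 difference 12.23 ± 0.52, adjusted p = 3.8e-07). Kng1, a kininogen from which bradykinin is cut, was 15137, 17143, 19255 and 13930.2 in the graft libraries and 0, 2.55 and 0 in the P-SSC libraries (log2 difference 13.38 ± 0.44, adjusted p = 5.8e-08). These genes were at or near 0 in each P-SSC library, and their differences from P-SSC 4 alone were 13.55 (adjusted p = 2.4e-05), 10.99 (adjusted p = 3.1e-05) and 13.99 (adjusted p = 1.9e-05).

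The 12 largest falls were Cd34 (-15.93), Pi16 (-15.59), Fbln2 (-14.09), Thbs4 (-13.98), Cilp (-13.85), Igfbp6 (-13.73), Clec3b (-13.66), Ly6c1 (-13.51), Tnxb (-13.40), C7 (-13.38), Tubb4a (-13.17) and Angptl7 (-13.16). Cd34, a sialomucin that endothelium, blood progenitors and fibroblasts display, was 0 in all 4 graft libraries and 72348, 66639 and 50508 in the P-SSC libraries (log2 difference -15.93 ± 0.89, adjusted p = 3.1e-06), at least 25689-fold lower. Pi16, a peptidase inhibitor of adventitial fibroblasts, was 0, 0, 129.9 and 0 in the graft libraries and 236339, 207933 and 94956 in the P-SSC libraries (log2 difference -15.59 ± 1.56, adjusted p = 0.00010). Fbln2, a fibulin of elastic fibres, was 0, 0, 0 and 249 in the graft libraries and 72816, 78392 and 58763 in the P-SSC libraries (log2 difference -14.09 ± 1.85, adjusted p = 0.00046). Thbs4, a thrombospondin of tendon, was 0 in all 4 graft libraries and 9119.8, 11970.3 and 38668 in the P-SSC libraries (log2 difference -13.98 ± 1.18, adjusted p = 4.3e-05). Cilp, a matrix protein of cartilage and tendon, was 0, 0, 0 and 12.1 in the graft libraries and 30147, 24905 and 29326 in the P-SSC libraries (log2 difference -13.85 ± 1.19, adjusted p = 4.5e-05). That every graft value was below every P-SSC value for the 5 genes follows from the naming rule. Their differences from P-SSC 4 alone were -15.62, -14.78, -13.85, -15.24 and -13.91.

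To see which programs the changed genes belong to, the members of 37 gene lists, each for a tissue program or pathway, were counted. The lists were chosen with earlier results of these data known, so their shares are a description and not a test. The shares of higher genes were largest in transcription factors of marrow stroma (9 of 20 tested), in secreted regulators of blood cells (12 of 27) and in genes of osteoblasts and mineralization (8 of 20). The shares of lower genes were largest for genes of adventitial fibroblasts (20 of 22), fibrillar and filament collagens (14 of 21), tendon and ligament (9 of 14) and small leucine-rich proteoglycans (8 of 14). These shares stand beside 6.08% higher and 12% lower over all genes, as do the counts of each list below. Against P-SSC 4 alone the same lists kept 6, 9 and 5 of their higher genes and 13, 11, 8 and 5 of their lower genes, beside 2.8% and 5.12% over all genes. With genes that had at most 3 reads in every library of a group set to their bound, the medians printed for the lists against the 3 P-SSC libraries stayed the same on the scale shown, except that those of tendon genes became -10.21, of adventitial genes -9.00, of cartilage genes -3.66, of small proteoglycans -3.20, of axon guidance genes -2.02 and of regulators of blood cells 1.97.

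**Figure D3:**
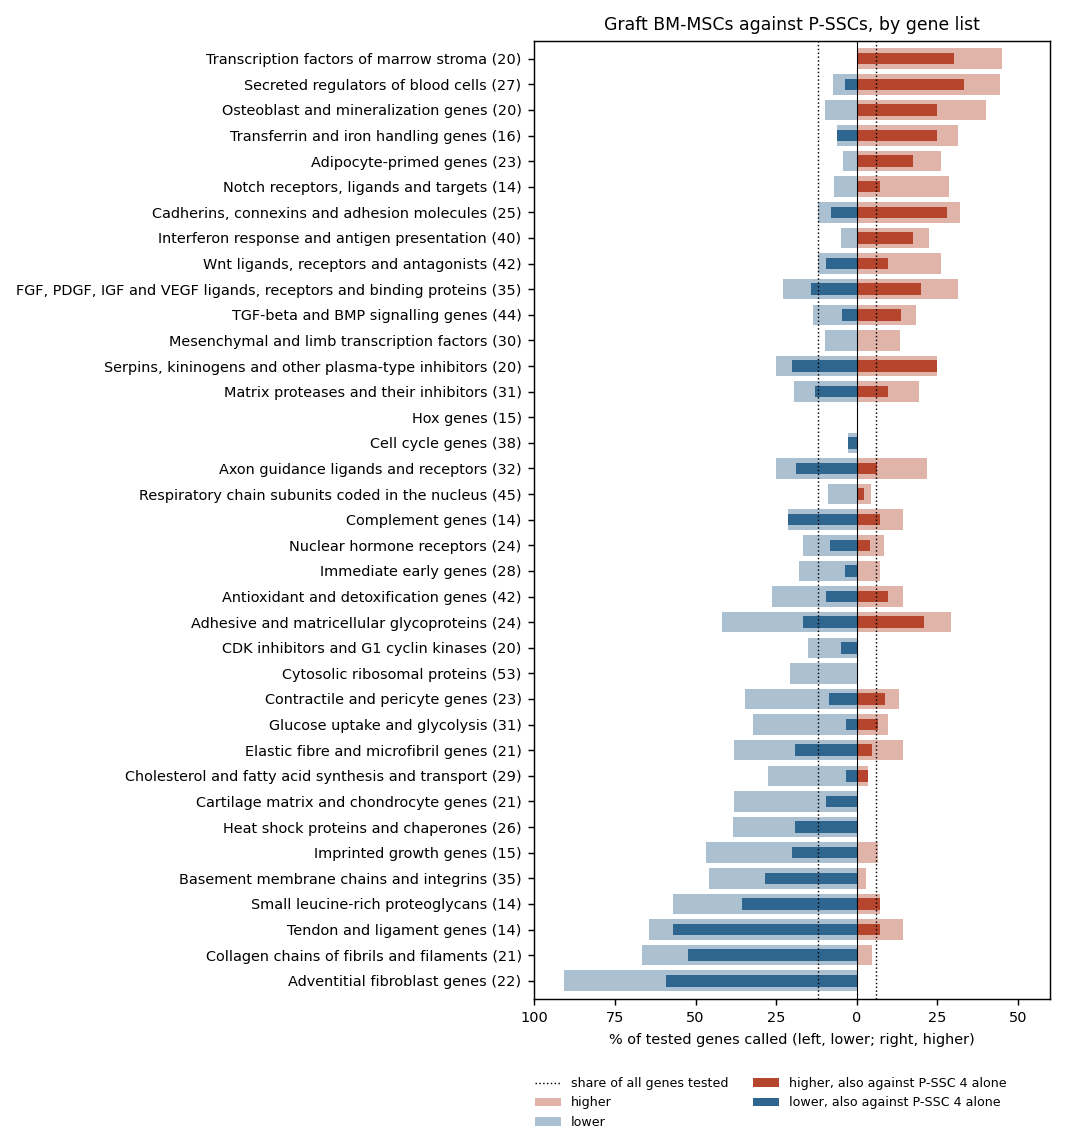
Share of the tested genes of each of 37 lists (number tested in brackets) called higher (right) or lower (left) in graft BM-MSCs, with dark bars for genes also called against P-SSC 4 alone and dotted lines at the shares of all genes tested, 6.08% and 12%. Adventitial genes stand at the lower end with 20 of 22 genes lower, and transcription factors of marrow stroma at the upper end with 9 of 20 higher.

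Of 20 transcription factors that maintain marrow stroma, 9 rose, none fell and 11 did not pass the test. Those that rose were Foxc1 (7.81), Runx3 (7.53), Cebpa (5.97), Ebf3 (5.70), Runx1 (5.64), Pparg (5.44), Runx2 (5.38), Cebpb (5.30) and Snai2 (5.21) on the log2 scale, and the median of the list was 2.36 (1.55 against P-SSC 4). Foxc1, a forkhead factor that marrow niche cells require, was 5795, 3242, 5476 and 4028 in graft BM-MSC 1 to 4 and 9.35, 5.10 and 128 in P-SSC 1, 2+5 and 4 (log2 difference 7.81 ± 0.88, adjusted p = 0.00020). All 4 graft values lay above all 3 P-SSC values, and the distance was smallest to P-SSC 4, where it was 5.13 (adjusted p = 0.0013). Runx3, a runt factor, was 495, 27, 181 and 459 in the graft libraries and 0 in all 3 P-SSC libraries (log2 difference 7.53 ± 1.33, adjusted p = 0.0028), at least 88.6-fold higher. Graft BM-MSC 2 was far below the other grafts for this gene, and against P-SSC 4 alone the adjusted p was 0.052. Among the 9 genes, Cebpb and Cebpa, a pair of factors of the fat and myeloid lineages, also lost their call against P-SSC 4 (adjusted p = 0.13 and 0.16). The count of 9 did not move after median centring or with edgeR, and 12 genes were higher after the GC correction.

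Of 30 factors of limb and connective tissue identity, 4 rose (13.3%) and 3 fell (10%), beside 6.08% and 12% over all genes. The median was -0.27, and it was -2.12 against P-SSC 4 alone, 0.17 after quantile normalization and 0.41 after the GC correction. None of these 7 genes was called against P-SSC 4 alone, where Scx, a tendon factor, was the 1 lower gene of the list, -9.14 (adjusted p = 0.011). The genes that fell were Osr2, Osr1 and Tbx5, of which the first pair are odd-skipped factors of limb connective tissue. Osr1 was 109.6, 0, 113 and 134 in the graft libraries and 3049.6, 4329 and 5519 in the P-SSC libraries (log2 difference -6.86 ± 1.52, adjusted p = 0.010), and the groups did not overlap. Of the genes that rose, Sox4 was 2889, 1105, 1034 and 2572 in the graft libraries and 15.6, 90.4 and 739 in the P-SSC libraries (log2 difference 4.04 ± 1.07, adjusted p = 0.025). P-SSC 4 lay close to the grafts for Sox4, at a difference of 1.21 (adjusted p = 0.62). With single libraries left out the count of higher genes was 0 without P-SSC 2+5, 1 without P-SSC 1 or graft BM-MSC 1, 2 without graft BM-MSC 3 or 4 and 7 without P-SSC 4, and the count of lower genes was 5 without graft BM-MSC 4. With 1 library left out, the call was lost for Tbx5 (without P-SSC 1 or 2+5, adjusted p up to 0.071) and Sox4 (without P-SSC 1 or 2+5 or graft BM-MSC 1 or 4, adjusted p up to 0.083).

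Hox genes, which record the position of a cell along the body axis, gave no call among 15 tested, at a median of 0.61 (0.47 against P-SSC 4). Hoxa10, the Hox gene with the highest mean, was 909, 442, 812 and 571 in the graft libraries and 373, 341 and 1216 in the P-SSC libraries (log2 difference 0.29 ± 0.48, adjusted p = 0.71). P-SSC 4 was above all 4 grafts for Hoxa10, while P-SSC 1 and P-SSC 2+5 were below them. Hoxa7 was 275 to 497 in graft BM-MSCs and 220.0 to 548 in P-SSCs (log2 difference -0.02 ± 0.44, adjusted p = 0.99), and the groups overlapped. For these genes the count of higher genes was 1 without P-SSC 4 and 2 without graft BM-MSC 1, and the count of lower genes was 1 without P-SSC 4.

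Promoter windows from RefSeq (GRCm38.p6, 250 bases before to 50 after the start of transcription) were searched on both strands for 4 kinds of motif. The motifs were EBF (TCCCNNGGG), C/EBP (TTGCGCAA or TTGCACAA), RUNX (TGTGGTTT) and the TATA box (TATAAA), and no motif contains another. Of the genes tested, 10572 matched a window and gave 13547 windows, since some genes have several. The TATA box motif stood in 12.3% of windows of higher genes and in 9.37% of windows of lower genes, against 7.57% of all windows. The EBF motif stood in 8.63%, 8.32% and 8.21%, the RUNX motif in 1.36%, 0.937% and 1.16%, and the C/EBP motif in 0.986%, 0.879% and 1.09%, in the same order. Shares of motifs are a description and name no factor at work. Among named genes of the fat-lineage, blood-regulator, adventitial and matricellular lists, the windows of Cd34, Pi16, Thbs4, Tnxb, Adipoq, Esm1, Cxcl12 and Fasn held none of these letters, and 3 windows held a motif, whose 250 bases before the start are shown here with the motif in capitals. Agt (chr8:124569707-124569956, minus strand) and Tgfb2 (chr1:186705990-186706239, minus strand) hold the TATA motif at bases -30 to -25 and -31 to -26 before the start, and Igfbp7 (chr5:77408046-77408295, minus strand) holds the reverse complement of the EBF motif at -71 to -63.
Agt promoter: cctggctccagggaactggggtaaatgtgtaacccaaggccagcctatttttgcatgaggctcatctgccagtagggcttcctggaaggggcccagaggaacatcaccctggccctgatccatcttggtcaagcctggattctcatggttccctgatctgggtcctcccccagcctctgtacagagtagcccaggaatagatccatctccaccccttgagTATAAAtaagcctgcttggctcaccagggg
Tgfb2 promoter: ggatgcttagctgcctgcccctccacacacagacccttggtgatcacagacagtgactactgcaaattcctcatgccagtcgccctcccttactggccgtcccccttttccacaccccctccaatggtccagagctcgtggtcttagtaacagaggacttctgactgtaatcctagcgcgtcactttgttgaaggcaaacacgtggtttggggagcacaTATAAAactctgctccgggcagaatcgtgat
Igfbp7 promoter: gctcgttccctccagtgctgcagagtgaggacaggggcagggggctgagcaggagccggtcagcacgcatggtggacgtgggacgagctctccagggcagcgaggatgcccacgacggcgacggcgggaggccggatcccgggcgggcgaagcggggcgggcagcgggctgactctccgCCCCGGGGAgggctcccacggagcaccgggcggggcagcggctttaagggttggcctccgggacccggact

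Of 27 secreted regulators of blood cells, 12 rose, 2 fell and 13 did not pass the test, with a median of 1.94 (1.51 against P-SSC 4). The 12 were Il7 (7.40), Cxcl12 (7.0), Cxcl14 (6.36), Kitl (5.73), Gas6 (5.53), Bmp6 (3.88), Il34 (3.36), Angptl4 (3.03), Angpt1 (2.78), Fgf7 (2.77), Csf1 (2.01) and Bmp4 (1.94). Il7, the growth factor of B cell precursors, was 1748, 2542, 1169 and 1576 in graft BM-MSC 1 to 4 and 36.4, 0 and 26.2 in P-SSC 1, 2+5 and 4 (log2 difference 7.40 ± 1.07, adjusted p = 0.00083). P-SSC 2+5 listed it at 0, every graft value was above every P-SSC value, and the difference from P-SSC 4 alone was 5.96 (adjusted p = 0.054). Csf1 and Angpt1 lost their call against P-SSC 4 as well (adjusted p = 0.17 and 0.11). Csf1 and Il34 are the ligands of the macrophage growth factor receptor, and Il34 was 4794 to 8923 in graft BM-MSCs and 581 to 753 in P-SSCs (log2 difference 3.36 ± 0.28, adjusted p = 3.4e-05). Gas6, a ligand of the receptors Axl and Mertk, was 64927 to 107636 in graft BM-MSCs and 529.9 to 20685 in P-SSCs (log2 difference 5.53 ± 1.03, adjusted p = 0.0040). Leaving out 1 library ended the call of Angpt1 (without P-SSC 2+5, adjusted p up to 0.067).

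The 2 regulators that fell were Tgfb2 and Thpo, though the count of lower genes was 1 without P-SSC 1 or 2+5 or graft BM-MSC 3 and 4 without graft BM-MSC 1 or 4. Thpo, thrombopoietin, which sustains megakaryocytes and blood stem cells, was 0 in all 4 graft libraries and 15.6, 100.6 and 56.2 in the P-SSC libraries (log2 difference -5.52 ± 0.81, adjusted p = 0.00093). Its difference from P-SSC 4 alone was -5.84 (adjusted p = 0.011). Tgfb2, a ligand of the TGF-beta family, was 85.3, 0, 0 and 271 in the graft libraries and 1039, 701 and 1138 in the P-SSC libraries (log2 difference -6.25 ± 1.87, adjusted p = 0.043). Inflammatory mediators of the list did not pass, and the ranges of the groups overlapped for Il6 (97.2 to 895 in graft BM-MSCs and 487 to 2488 in P-SSCs), for Ccl2 (454 to 1358 in graft BM-MSCs and 687 to 3253 in P-SSCs) and for Cxcl1 (189 to 1698 in graft BM-MSCs and 1622 to 6138 in P-SSCs). The call rested on single libraries for Tgfb2 (without any P-SSC library or graft BM-MSC 2 or 3, adjusted p up to 0.14).

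Of 23 genes of the fat lineage, 6 rose, 1 fell and 16 did not pass the test, and the median was 1.97 (0.85 against P-SSC 4). The genes that rose were Adipoq (13.29), Agt (8.49), Apoe (5.16), Fabp4 (3.56), Fabp5 (3.16) and Lpl (2.76), and all but Fabp4 and Fabp5 were also called against P-SSC 4. Agt, angiotensinogen, the precursor of angiotensin, was 21092, 35081, 45028 and 22047 in graft BM-MSC 1 to 4 and 90.4, 85.3 and 67.9 in P-SSC 1, 2+5 and 4 (log2 difference 8.49 ± 0.29, adjusted p = 6.5e-08). The 3 P-SSC libraries lay close together, and the group means differed 379.5-fold. Plin1, which coats fat droplets, was 151, 0, 0 and 924 in the graft libraries and 0 in all 3 P-SSC libraries (log2 difference 4.28 ± 2.18, adjusted p = 0.20). Cidec, a protein of droplet growth, was 0, 0, 155 and 291 in the graft libraries and 0 in all 3 P-SSC libraries (log2 difference 3.87 ± 1.96, adjusted p = 0.20). Cfd, the secreted protease adipsin, was 1.13, 0, 5366 and 2370.0 in the graft libraries and 58.2, 0 and 21.3 in the P-SSC libraries (log2 difference 2.72 ± 3.09, adjusted p = 0.57). For these 3 genes graft libraries at or near 0 stood beside graft libraries with over 100, and the groups overlapped. A single left-out library ended the call of Fabp5 (without P-SSC 1 or 4 or graft BM-MSC 1, adjusted p up to 0.079).

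Genes of lipid synthesis were more often lower. Of 29 genes for cholesterol and fatty acid synthesis and transport, 1 rose and 8 fell, with a median of -2.24 (-1.51 against P-SSC 4), and 1 of the lower genes was called against P-SSC 4. Soat1, which esterifies cholesterol, rose and was 2816, 1449.6, 2236 and 1539.7 in the graft libraries and 270.1, 191 and 220.0 in the P-SSC libraries (log2 difference 3.10 ± 0.36, adjusted p = 0.00024). Acly, which supplies acetyl-CoA for lipid synthesis, was 1104, 378, 48.3 and 1539 in the graft libraries and 10398, 7486 and 7854 in the P-SSC libraries (log2 difference -4.33 ± 0.95, adjusted p = 0.0095). The groups did not overlap, but against P-SSC 4 alone the difference of Acly was -4.22 (adjusted p = 0.16). Fasn, fatty acid synthase, was 289.8, 2.53, 816 and 121 in the graft libraries and 3541, 2692 and 1986 in the P-SSC libraries (log2 difference -4.73 ± 1.44, adjusted p = 0.045). After the GC correction 2 genes were lower, and the count of lower genes was 4 without P-SSC 1 or 2+5. With 1 library fewer the call did not hold for Fasn (without any P-SSC library or graft BM-MSC 1 or 4, adjusted p up to 0.15).

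Genes of the osteoblast lineage rose more often than they fell. Of 20 tested, 8 were higher and 2 lower, with a median of 1.80 (2.15 against P-SSC 4). Those higher included Tnfsf11 (6.62), Pth1r (4.25), Ibsp (4.00), Enpp1 (3.58), Spp1 (3.07), Sp7 (3.02) and Alpl (1.65). Pth1r, the receptor of parathyroid hormone, was 6068, 3452, 7633 and 5573 in the graft libraries and 173, 90.4 and 1470.5 in the P-SSC libraries (log2 difference 4.25 ± 0.77, adjusted p = 0.0032). Its level in P-SSC 4 was far above that of the other P-SSC libraries, and against P-SSC 4 alone the difference was 1.89 (adjusted p = 0.057). Tnfsf11, which codes for the osteoclast factor RANKL, was 1027, 245, 35.2 and 1304 in the graft libraries and 0, 0 and 36.8 in the P-SSC libraries (log2 difference 6.62 ± 1.68, adjusted p = 0.021). Graft BM-MSC 3 was below P-SSC 4 for this gene, and it was not called against P-SSC 4 (adjusted p = 0.49). Single libraries decided the call of Tnfsf11 (without P-SSC 1 or 2+5 or graft BM-MSC 1, adjusted p up to 0.091).

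Bglap, Bglap2 and Dmp1, which mature osteoblasts and osteocytes use, gave no call. Bglap, osteocalcin, was 10983, 10529, 4013 and 29627 in the graft libraries and 11676, 14354 and 2518 in the P-SSC libraries (log2 difference 0.53 ± 0.75, adjusted p = 0.65). Its near copy Bglap2 was 1892 to 13500.4 in graft BM-MSCs and 1421 to 8126 in P-SSCs (adjusted p = 0.90), although reads of the pair may be split between them. Dmp1, of osteocytes, was 296 to 2399 in graft BM-MSCs and 19.4 to 582 in P-SSCs (adjusted p = 0.051). The genes that fell were Smpd3, a sphingomyelinase of skeletal tissue, and Col22a1, a collagen of tissue junctions. Smpd3 was 109.6, 12.6, 3.02 and 596 in the graft libraries and 5519.7, 6679 and 10638 in the P-SSC libraries (log2 difference -7.39 ± 1.36, adjusted p = 0.0036), without overlap. Its difference from P-SSC 4 alone was -7.93 (adjusted p = 0.067). Col22a1 was 64.4, 0, 0 and 219 in the graft libraries and 902, 1895 and 2409.8 in the P-SSC libraries (log2 difference -7.19 ± 1.76, adjusted p = 0.017). With 1 library left out, the call was lost for Col22a1 (without P-SSC 2+5 or 4, adjusted p up to 0.066).

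**Figure D4:**
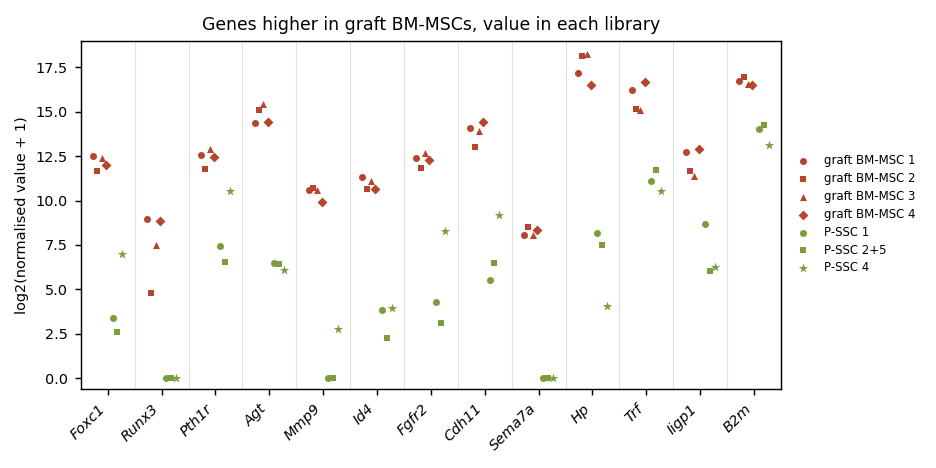
Values of genes called higher in graft BM-MSCs, as log2(normalised value + 1), with 1 point for each graft BM-MSC library (red) and each P-SSC library (green, star for P-SSC 4). For every gene plotted, the 4 graft points lie above the 3 P-SSC points, which the naming rule asks for. For Foxc1, Pth1r, Fgfr2 and Cdh11 the star is the P-SSC point nearest the grafts.

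Genes that mark the fibroblasts of the adventitia, the sheath around vessels and tissues, fell almost throughout. Of 22 tested, 20 were lower and none higher, 13 of them also against P-SSC 4, and the median was -9.38 (-8.84 against P-SSC 4). The count stayed between 17 and 19 when any of the 7 libraries was left out, and was 19 after the GC correction. Clec3b, the plasminogen-binding protein tetranectin, was 0, 0, 0 and 22.4 in graft BM-MSC 1 to 4 and 26025, 39364 and 22622 in P-SSC 1, 2+5 and 4 (log2 difference -13.66 ± 1.37, adjusted p = 0.00010). Ly6c1, a surface antigen whose reads may be shared with its paralogs, was 0, 0, 117 and 0 in the graft libraries and 42637, 54121 and 24478 in the P-SSC libraries (log2 difference -13.51 ± 1.66, adjusted p = 0.00031). In each of these genes a single graft library had reads and the other 3 listed 0, and the library with reads was not the same. Dpp4, a surface peptidase of fibroblast progenitors, was 0, 0, 0 and 0.863 in the graft libraries and 9731, 8690.2 and 6347 in the P-SSC libraries (log2 difference -12.76 ± 0.99, adjusted p = 2.5e-05). Ly6a, the stem cell antigen Sca-1, was 699, 247, 979.9 and 682 in the graft libraries and 81368, 96853 and 43887 in the P-SSC libraries (log2 difference -6.91 ± 0.49, adjusted p = 1.7e-05), so that all 4 grafts kept reads of it. Cd248, endosialin, fell less, 831 to 2538 in graft BM-MSCs and 5045 to 71454 in P-SSCs (log2 difference -3.08 ± 0.78, adjusted p = 0.021). The 2 genes that were not called were Ebf2, 0 to 369 in graft BM-MSCs and 2283 to 5702 in P-SSCs, and Smoc2, 811 to 1626 in graft BM-MSCs and 884 to 14451 in P-SSCs.

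Most tendon and ligament genes fell as well. Of 14 tested, 9 fell and 2 rose, with a median of -10.44 (-10.77 against P-SSC 4), and the count of 9 was the same whichever of the 7 libraries was left out. Besides Thbs4 and Cilp, those that fell were Angptl7 (-13.16), Col14a1 (-12.84), Mfap4 (-11.99), Kera (-11.25), Tnmd (-10.63), Ptx4 (-10.24) and Cilp2 (-9.61). Kera, the keratan sulfate proteoglycan keratocan, was 0 in all 4 graft libraries and 2521, 2813 and 2019 in the P-SSC libraries (log2 difference -11.25 ± 0.92, adjusted p = 3.4e-05), at least 997-fold lower. Tnmd, tenomodulin, was 71.2, 0, 0 and 0 in the graft libraries and 4649, 6695 and 3178 in the P-SSC libraries (log2 difference -10.63 ± 1.80, adjusted p = 0.0022). Its difference from P-SSC 4 alone was -10.09 (adjusted p = 0.067). The 2 that rose were Chrdl1 and Clec11a. Chrdl1, an inhibitor of bone morphogenetic proteins, was 20790.1, 17668, 22784 and 24592 in the graft libraries and 1154, 688 and 1565 in the P-SSC libraries (log2 difference 4.31 ± 0.29, adjusted p = 1.5e-05), and against P-SSC 4 the difference was 3.77 (adjusted p = 0.00092). Clec11a, the osteogenic factor osteolectin, was 4659, 3296, 4870.1 and 4052 in the graft libraries and 1110.4, 624 and 3685 in the P-SSC libraries (log2 difference 1.61 ± 0.48, adjusted p = 0.043). P-SSC 4 was within the range of the grafts for Clec11a (adjusted p = 0.82 against it). Leaving out 1 library ended the call of Clec11a (without P-SSC 1 or 2+5 or any graft library, adjusted p up to 0.16).

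Cartilage genes fell in 8 of 21 cases and rose in none, with a median of -3.34 (-3.65 against P-SSC 4). Of the 21, Col9a1, Hapln1 and Matn1 were at 0 in all 7 libraries compared and so held no difference to call. They passed the filter through the steady-state marrow libraries. The 8 that fell were Chad (-12.90), Cnmd (-7.31), Matn4 (-6.60), Prg4 (-6.30), Acan (-5.27), Col11a1 (-3.79), Col11a2 (-3.34) and Matn2 (-1.44), and Chad and Cnmd were also called against P-SSC 4. Chad, chondroadherin, was 0, 244, 0 and 0 in the graft libraries and 44663, 23976 and 25980.3 in the P-SSC libraries (log2 difference -12.90 ± 1.68, adjusted p = 0.00045). Cnmd, an inhibitor of vessel growth, was 0 in all 4 graft libraries and 503, 47.1 and 164 in the P-SSC libraries (log2 difference -7.31 ± 1.12, adjusted p = 0.0012). Col2a1, the main collagen of cartilage, was 791, 0, 1343 and 3566 in the graft libraries and 129.8, 1354 and 724 in the P-SSC libraries and was not called (adjusted p = 0.79). In fits that lacked 1 library the count of higher genes was 1 without graft BM-MSC 2, and the count of lower genes was 5 without P-SSC 1 or 2+5. The call rested on single libraries for Matn4 (without P-SSC 4, adjusted p up to 0.058), Prg4 (without any P-SSC library or graft BM-MSC 4, adjusted p up to 0.12), Acan (without P-SSC 2+5, adjusted p up to 0.056), Col11a1 (without any P-SSC library or graft BM-MSC 1, adjusted p up to 0.098), Col11a2 (without P-SSC 1 or 2+5 or graft BM-MSC 3, adjusted p up to 0.12) and Matn2 (without any P-SSC library or graft BM-MSC 1 or 4, adjusted p up to 0.12).

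The collagens of fibrils and filaments were lower in 14 of 21 genes and higher in 1, and the median was -2.46 (-2.20 against P-SSC 4, and -1.47 after the GC correction, with 10 lower). The abundant chains fell too. Col1a1 was 14762, 9531, 10399 and 33746 in graft BM-MSC 1 to 4 and 259134, 401795 and 185603 in P-SSC 1, 2+5 and 4 (log2 difference -4.17 ± 0.47, adjusted p = 0.00020). Col1a2 was 37626 to 103679 in graft BM-MSCs and 272362 to 442551 in P-SSCs (log2 difference -2.46 ± 0.33, adjusted p = 0.00051). Col3a1 was 4787 to 31862 in graft BM-MSCs and 433539 to 792758 in P-SSCs (log2 difference -5.66 ± 0.58, adjusted p = 0.00012). Type I collagen is made of Col1a1 and Col1a2 together, and each of the 3 chains was called against P-SSC 4, with differences of -3.64 (adjusted p = 0.017), -2.10 (adjusted p = 0.036) and -5.29 (adjusted p = 0.0089). Col14a1, which links fibrils, was 0, 0, 5.04 and 5.18 in the graft libraries and 19793, 17450.4 and 17105 in the P-SSC libraries (log2 difference -12.84 ± 1.13, adjusted p = 5.0e-05). Col6a6, a chain of microfilaments, was 0 in all 4 graft libraries and 1538, 1564 and 384 in the P-SSC libraries (log2 difference -9.93 ± 0.95, adjusted p = 8.1e-05), at least 473-fold lower. The chain that rose, Col8a1 of network-forming collagen, was 7397 to 41399 in graft BM-MSCs and 4577 to 8250.4 in P-SSCs (log2 difference 1.56 ± 0.48, adjusted p = 0.049). A single left-out library ended the call of Col8a1 (without any P-SSC library or graft BM-MSC 1, 2 or 4, adjusted p up to 0.18).

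Small leucine-rich proteoglycans were lower in 8 of 14 and higher in 1, at a median of -3.41 (-3.07 against P-SSC 4). Bgn, biglycan, was the one that rose, 80072, 58207, 67558 and 97229.9 in graft BM-MSC 1 to 4 and 22929, 20669 and 18461 in P-SSC 1, 2+5 and 4 (log2 difference 1.85 ± 0.19, adjusted p = 0.00013). The group means differed 3.66-fold, and the gene was also called against P-SSC 4, 2.01 (adjusted p = 0.0032). Dcn, decorin, a close relative of biglycan, was 10582, 19863, 15668 and 22192 in the graft libraries and 474788, 481665 and 330631 in the P-SSC libraries (log2 difference -4.68 ± 0.27, adjusted p = 3.2e-06). The groups did not overlap for either, and they were apart in opposite directions, a difference between the genes that was not itself tested. Aspn, asporin, was 0, 0, 114 and 204 in the graft libraries and 5009.7, 4886 and 4191 in the P-SSC libraries (log2 difference -8.56 ± 1.92, adjusted p = 0.011). Ogn, osteoglycin, was 4709 to 6608 in graft BM-MSCs and 13772 to 19052 in P-SSCs (log2 difference -1.58 ± 0.24, adjusted p = 0.0012). Lum, lumican, was 632 to 12018 in graft BM-MSCs and 12220.5 to 19854 in P-SSCs and was not called (adjusted p = 0.084). With 1 library fewer the call did not hold for Aspn (without P-SSC 1, adjusted p up to 0.051).

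Elastic fibre genes were lower in 8 of 21 and higher in 3, at a median of -1.06 (-1.50 against P-SSC 4). Eln, elastin, was 3.95, 0, 0 and 412 in the graft libraries and 10714, 8872 and 14201 in the P-SSC libraries (log2 difference -10.68 ± 1.92, adjusted p = 0.0031). Mfap4, a microfibril protein, was 0, 0, 39.3 and 1.73 in the graft libraries and 18717, 12029 and 10074 in the P-SSC libraries (log2 difference -11.99 ± 1.43, adjusted p = 0.00027). Fbn1, fibrillin 1, was 1092 to 6986 in graft BM-MSCs and 21048 to 34318 in P-SSCs (log2 difference -3.10 ± 0.51, adjusted p = 0.0018). In contrast, Fbln5, Lox and Ltbp2 rose. Fbln5, a fibulin of elastic fibre assembly, was 37958 to 68880.2 in graft BM-MSCs and 7760.3 to 11174 in P-SSCs (log2 difference 2.39 ± 0.23, adjusted p = 9.0e-05), and against P-SSC 4 the difference was 2.27 (adjusted p = 0.0054). Ltbp2, a binding protein of fibrillin, was 13289, 6704, 6117 and 16238 in the graft libraries and 1023, 81.5 and 1761 in the P-SSC libraries (log2 difference 4.19 ± 0.86, adjusted p = 0.0067). Lox, which crosslinks collagen and elastin, was 3878, 3765, 5235 and 10827 in the graft libraries and 276, 129.9 and 2177 in the P-SSC libraries (log2 difference 3.64 ± 0.80, adjusted p = 0.0099). For both of these P-SSC 4 had the highest P-SSC value, with differences from it of 2.46 (adjusted p = 0.29) and 1.30 (adjusted p = 0.34). When each library was left out in turn, the count of lower genes was 5 without P-SSC 1. Single libraries decided the call of Lox (without P-SSC 1, adjusted p up to 0.052).

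Adhesive and matricellular glycoproteins went both ways, with 7 of 24 higher and 10 lower. The 7 were Esm1 (12.23), Igfbp7 (5.25), Smoc1 (5.23), Spon1 (3.79), Ccn2 (2.90), Tnc (2.57) and Ccn5 (2.54). Igfbp7, whose promoter is printed above and which binds insulin-like growth factors, was 42199, 45055, 43218 and 41981 in graft BM-MSC 1 to 4 and 358, 318 and 12761 in P-SSC 1, 2+5 and 4 (log2 difference 5.25 ± 1.03, adjusted p = 0.0052). The 4 graft values were nearly equal, P-SSC 4 stood well above the other P-SSC libraries, and against it alone the difference was 1.76 (adjusted p = 0.0033), while edgeR on whole reads did not call the gene. Tnc, tenascin-C, was 18336 to 37072 in graft BM-MSCs and 2437 to 7607 in P-SSCs (log2 difference 2.57 ± 0.36, adjusted p = 0.00075). Its relative Tnxb, tenascin-X, which organises collagen, was 0 in all 4 graft libraries and 11238, 11195 and 10109 in the P-SSC libraries (log2 difference -13.40 ± 0.99, adjusted p = 2.1e-05), at least 4412-fold lower. Tenascins thus held both a higher and a lower member. Sparc, which binds collagen, was 94429.6 to 183738 in graft BM-MSCs and 232514 to 495139.6 in P-SSCs (log2 difference -1.42 ± 0.29, adjusted p = 0.0063). Its relative Sparcl1 was 37.9, 0, 0 and 0.863 in the graft libraries and 6928, 7091 and 6694 in the P-SSC libraries (log2 difference -11.21 ± 1.98, adjusted p = 0.0029). Tgfbi, an adhesive protein, was 195, 0, 0 and 941 in the graft libraries and 11376, 7221 and 14431 in the P-SSC libraries (log2 difference -9.00 ± 2.14, adjusted p = 0.015). With 1 library left out, the call was lost for Ccn2 (without P-SSC 1, adjusted p up to 0.061) and Tgfbi (without P-SSC 1, adjusted p up to 0.060).

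Chains of the basement membrane and integrins were lower in 16 of 35 and higher in 1, at a median of -2.24 (-2.53 against P-SSC 4), and 10 of the 16 were called against P-SSC 4. Of the collagen IV chains, Col4a5 was 0 in all 4 graft libraries and 2084, 1810.1 and 1432 in the P-SSC libraries (log2 difference -10.78 ± 1.46, adjusted p = 0.00057), and Col4a4 and Col4a6 fell too. The common chains did not pass, with Col4a1 at 4942 to 11205 in graft BM-MSCs and 8371 to 11753 in P-SSCs (adjusted p = 0.32). Col4a2 was 1493 to 7331 in graft BM-MSCs and 2692 to 9513 in P-SSCs (adjusted p = 0.99). Laminin chains that fell included Lama2 (-7.22), Lamb3 (-5.64), Lamb2 (-3.53), Lama4 (-2.71), Lamb1 (-2.20) and Lamc1 (-1.47). Nid1, nidogen, which links laminin to collagen IV, was 2453 to 5339 in graft BM-MSCs and 56456 to 84929.6 in P-SSCs (log2 difference -4.41 ± 0.29, adjusted p = 1.0e-05). The integrin chain that rose was Itga1, of collagen receptors, 4995, 669, 1269 and 3812 in the graft libraries and 261, 206 and 351 in the P-SSC libraries (log2 difference 2.91 ± 0.63, adjusted p = 0.0087), with a difference of 2.51 (adjusted p = 0.20) against P-SSC 4. Itga7, Itga2, Itga5 and Itga11 fell. With 1 library fewer the count of higher genes was 2 without graft BM-MSC 3 and 3 without P-SSC 4. Leaving out 1 library ended the call of Lamb3 (without P-SSC 2+5, adjusted p up to 0.066), Lamb1 (without P-SSC 1, adjusted p up to 0.052), Lamc1 (without P-SSC 4 or graft BM-MSC 1, 2 or 3, adjusted p up to 0.078) and Itga2 (without any P-SSC library or graft BM-MSC 2, 3 or 4, adjusted p up to 0.089).

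**Figure D5:**
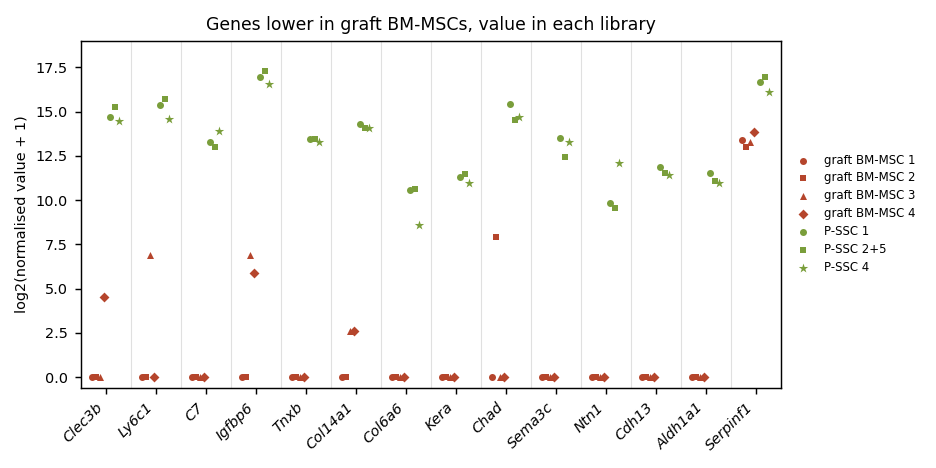
Values of 14 genes called lower in graft BM-MSCs, as log2(normalised value + 1), with 1 point for each graft BM-MSC library (red) and each P-SSC library (green, star for P-SSC 4). Many graft points lie at 0. The P-SSC points of all 14 genes lie above the graft points, which the naming rule asks for. Serpinf1 is the gene plotted for which every graft library had reads.

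Of 31 matrix proteases and their inhibitors, 6 were higher and 6 lower at a median of -0.33. Against P-SSC 4 alone 4 were higher and 6 lower at a median of -1.28, and the median was 0.03 after quantile normalization and 0.68 after the GC correction, with 10 higher. Mmp9, a gelatinase that osteoclasts and neutrophils also make, was 1541, 1697, 1542 and 979 in graft BM-MSC 1 to 4 and 0, 0 and 5.82 in P-SSC 1, 2+5 and 4 (log2 difference 9.54 ± 0.75, adjusted p = 2.6e-05). The neutrophil sum was highest in graft BM-MSC 3 at 7544 ppm and between 410.5 and 955 ppm in the other grafts. Mmp9 in graft BM-MSC 3 was within the range of the others. Of 7 osteoclast markers listed, 3 were measured, Mmp9 among them. Acp5 was 1.69 to 106 in graft BM-MSCs and 265 to 333 in P-SSCs and was not called (adjusted p = 0.090). Calcr, the calcitonin receptor, was 0 in all 4 graft libraries and 44.7, 71.3 and 62.0 in the P-SSC libraries (adjusted p = 0.00027). The part of neutrophils and osteoclasts in the Mmp9 values was not tested. Against P-SSC 4 the difference of Mmp9 was 7.69 (adjusted p = 0.00067). Mmp13, collagenase 3, was 6277 to 12167 in graft BM-MSCs and 289.8 to 656 in P-SSCs (log2 difference 4.42 ± 0.37, adjusted p = 4.2e-05). Pappa, which cleaves binding proteins of insulin-like growth factors, was 587 to 3020.2 in graft BM-MSCs and 19.7 to 93.0 in P-SSCs (log2 difference 5.29 ± 0.66, adjusted p = 0.00034). Mmp3, stromelysin, fell and was 6.21, 0, 0 and 0 in the graft libraries and 839, 539 and 1806 in the P-SSC libraries (log2 difference -9.16 ± 1.29, adjusted p = 0.00071). Mmp2, the other gelatinase, was 3324 to 10600.4 in graft BM-MSCs and 39911 to 52825 in P-SSCs (log2 difference -3.06 ± 0.41, adjusted p = 0.00056). The inhibitor Timp3 was 382 to 1765 in graft BM-MSCs and 10262 to 16474 in P-SSCs (log2 difference -3.91 ± 0.45, adjusted p = 0.00022). Over the fits without 1 library, the count of higher genes was 3 without P-SSC 1.

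Serpins, kininogens and related inhibitors rose in 5 of 20 and fell in 5, with a median of -1.21 (-0.10 against P-SSC 4, with 6 higher and 4 lower). Serpine2, protease nexin 1, was 71609 to 134446 in graft BM-MSCs and 11408 to 13180.1 in P-SSCs (log2 difference 3.06 ± 0.24, adjusted p = 2.5e-05). Serpinf1, the antiangiogenic factor PEDF, was 10639, 8127, 9857 and 14881 in graft BM-MSC 1 to 4 and 105658, 124604 and 70932 in P-SSC 1, 2+5 and 4 (log2 difference -3.20 ± 0.26, adjusted p = 3.3e-05). The P-SSC mean was 9.23 times the graft mean. Serpinb6a, an intracellular inhibitor, was 2623, 2417, 1671 and 2128 in the graft libraries and 14408, 17225 and 9279 in the P-SSC libraries (log2 difference -2.60 ± 0.27, adjusted p = 0.00013). Both Serpinf1 and Serpinb6a were called against P-SSC 4, -2.74 (adjusted p = 0.0022) and -2.09 (adjusted p = 0.0048). Serpinh1, the collagen chaperone HSP47, was 20917 to 32772 in graft BM-MSCs and 65429 to 91020.0 in P-SSCs (log2 difference -1.56 ± 0.19, adjusted p = 0.00034). Kng1 and Kng2, which rose, are near copies, as are members of the Serpina3 family, and their reads may be shared.

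In the complement list 2 of 14 rose and 3 fell. The components C6 and C7, which join the membrane attack complex one after the other, moved in opposite directions. C6 was 42.9, 947, 2347 and 621 in graft BM-MSC 1 to 4 and 0, 1.27 and 0 in P-SSC 1, 2+5 and 4 (log2 difference 8.56 ± 1.16, adjusted p = 0.00057). C7 was 0, 0, 0 and 0 in graft BM-MSC 1 to 4 and 9830.3, 8154 and 15061 in P-SSC 1, 2+5 and 4 (log2 difference -13.38 ± 1.18, adjusted p = 5.0e-05), at least 4479.8-fold lower. Both differences were also called against P-SSC 4, 8.96 (adjusted p = 0.018) and -13.88 (adjusted p = 0.0019). Cd55, which shields cells from complement, was 0, 0, 104 and 0 in the graft libraries and 9159, 8065 and 6276 in the P-SSC libraries (log2 difference -11.24 ± 1.59, adjusted p = 0.00074). C3, the central component, was 10871 to 12373 in graft BM-MSCs and 67215 to 149549 in P-SSCs (log2 difference -3.29 ± 0.29, adjusted p = 4.7e-05).

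Of 42 Wnt genes, 11 rose and 5 fell, with a median of 0.25 and, against P-SSC 4, -0.94. Among ligands, Wnt4 rose and was 1182, 975, 839.9 and 193 in the graft libraries and 0, 2.55 and 4.85 in the P-SSC libraries (log2 difference 7.91 ± 0.97, adjusted p = 0.00031). Wnt2, Wnt10b, Wnt9a and Wnt16 fell, and Wnt2 was 0 in all 4 graft libraries and 1153, 1447 and 1958 in the P-SSC libraries (log2 difference -10.54 ± 0.97, adjusted p = 6.7e-05). Among receptors, Fzd1, Fzd5, Fzd8, Fzd9 and Ryk rose. The R-spondins Rspo2 and Rspo3, which amplify Wnt signals, rose, as did their receptor Lgr5, which was 364, 535, 2198 and 402 in the graft libraries and 0, 0 and 30 in the P-SSC libraries (log2 difference 7.68 ± 1.38, adjusted p = 0.0032). None of these 3 was called against P-SSC 4 (adjusted p = 0.15, 0.095 and 0.13). The antagonist Dkk2 was 0, 0, 3.02 and 0 in the graft libraries and 2420.2, 1206 and 838 in the P-SSC libraries (log2 difference -9.90 ± 1.03, adjusted p = 0.00013). Another antagonist, Sfrp1, was 824 to 5544 in graft BM-MSCs and 52.2 to 863 in P-SSCs (log2 difference 3.29 ± 0.95, adjusted p = 0.036). Axin2, a common target of the pathway, was 0 to 26.8 in graft BM-MSCs and 3.88 to 41.5 in P-SSCs and was not called (adjusted p = 0.34). The call rested on single libraries for Fzd1 (without P-SSC 1 or 2+5 or graft BM-MSC 3 or 4, adjusted p up to 0.11), Fzd8 (without P-SSC 1 or 2+5, adjusted p up to 0.066) and Sfrp1 (without P-SSC 1 or 2+5 or graft BM-MSC 1 or 4, adjusted p up to 0.15).

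In the TGF-beta and BMP list 8 of 44 rose and 6 fell, with a median of 0.09 that was -0.95 against P-SSC 4 and 0.99 after the GC correction. The genes that rose included the ligands Bmp4 and Bmp6 and the secreted antagonists Grem1, Chrdl1 and Fst. Grem1, gremlin, was 2543, 2565, 1813 and 1515 in graft BM-MSC 1 to 4 and 36.4, 0 and 0 in P-SSC 1, 2+5 and 4 (log2 difference 9.27 ± 1.10, adjusted p = 0.00026). Bmp6 was 6022 to 9827 in graft BM-MSCs and 276 to 1144 in P-SSCs (log2 difference 3.88 ± 0.44, adjusted p = 0.00020). Fst, follistatin, was 3617 to 9212 in graft BM-MSCs and 327 to 855 in P-SSCs (log2 difference 3.78 ± 0.42, adjusted p = 0.00019). These 3 genes were all called against P-SSC 4. Id4, an inhibitor of helix-loop-helix factors, was 2593, 1606, 2164 and 1617 in the graft libraries and 13.5, 3.82 and 14.5 in the P-SSC libraries (log2 difference 7.57 ± 0.61, adjusted p = 3.2e-05), while its relatives Id1, Id2 and Id3 gave no call. Of the genes that fell, Tgfbr2, a receptor of TGF-beta, was 944 to 2649.7 in graft BM-MSCs and 4160.4 to 17589 in P-SSCs (log2 difference -2.32 ± 0.49, adjusted p = 0.0084). Mstn, myostatin, which skeletal muscle makes, was 0 in all 4 graft libraries and 28.0, 48.4 and 81.4 in the P-SSC libraries (log2 difference -5.62 ± 0.73, adjusted p = 0.00043). Bmp7 was 45.8, 0, 0 and 0.863 in the graft libraries and 196, 189.8 and 1305 in the P-SSC libraries (log2 difference -6.91 ± 1.81, adjusted p = 0.024). A single left-out library ended the call of Bmp7 (without any P-SSC library or graft BM-MSC 3, adjusted p up to 0.069).

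Of 14 Notch genes, 4 rose and 1 fell, with a median of 0.53 (-0.69 against P-SSC 4), and Lfng was the single call against P-SSC 4. Lfng, a glycosyltransferase that tunes Notch receptors, was 412, 628, 393 and 511 in the graft libraries and 0, 0 and 9.69 in the P-SSC libraries (log2 difference 7.76 ± 1.05, adjusted p = 0.00058). Notch3, a receptor of perivascular cells, was 825, 923, 2117 and 789.7 in the graft libraries and 107, 248 and 284 in the P-SSC libraries (log2 difference 2.43 ± 0.46, adjusted p = 0.0045). The groups did not overlap for Notch3, and its difference from P-SSC 4 was 1.90 (adjusted p = 0.13). Across leave-one-out fits the count of higher genes was 2 without P-SSC 1 or 2+5 or graft BM-MSC 3 or 4, and the count of lower genes was 0 without P-SSC 1 or 4 or graft BM-MSC 1, 2 or 4.

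Growth factors of the FGF, PDGF, IGF and VEGF families, with their receptors and binding proteins, rose in 11 of 35 and fell in 8. Fgfr2 and Fgfr4 are receptors of the same family. Fgfr2 was 5444, 3717, 6621 and 5009 in the graft libraries and 18.7, 7.64 and 313 in the P-SSC libraries (log2 difference 7.08 ± 0.96, adjusted p = 0.00058). Fgfr4 was 0 in all 4 graft libraries and 265, 874 and 344 in the P-SSC libraries (log2 difference -8.75 ± 0.88, adjusted p = 0.00010). Each was called against P-SSC 4, 4.02 (adjusted p = 0.0026) and -8.43 (adjusted p = 0.0026). Of ligands, Fgf7 was 3109 to 4214 in graft BM-MSCs and 502 to 609 in P-SSCs (log2 difference 2.77 ± 0.27, adjusted p = 9.4e-05). Its near relative Fgf10 was 0 in all 4 graft libraries and 322, 236 and 64.0 in the P-SSC libraries (log2 difference -7.41 ± 0.87, adjusted p = 0.00024). Vegfc, a factor of lymphatic vessels, was 3187 to 5177 in graft BM-MSCs and 77.9 to 180.3 in P-SSCs (log2 difference 5.20 ± 0.36, adjusted p = 1.5e-05). Vegfd, which acts on the same receptor, was 0, 0, 8.06 and 96.7 in the graft libraries and 1303, 1186 and 443 in the P-SSC libraries (log2 difference -7.34 ± 1.80, adjusted p = 0.018). Related ligands thus lay on opposite sides. With single libraries left out the count of lower genes was 5 without P-SSC 1. With 1 library fewer the call did not hold for Vegfd (without P-SSC 1 or 2+5, adjusted p up to 0.077).

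Pdgfra, a surface marker of mesenchymal progenitors, was 2161 to 2865 in graft BM-MSCs and 6193 to 14223 in P-SSCs (log2 difference -1.88 ± 0.29, adjusted p = 0.0012). Pdgfrb, the second receptor of the family, was 10490.4 to 19875 in graft BM-MSCs and 6981 to 10675 in P-SSCs (log2 difference 0.90 ± 0.24, adjusted p = 0.026). Binding proteins of insulin-like growth factors also separated. Igfbp6 was 0, 0, 117 and 57.8 in graft BM-MSC 1 to 4 and 125534, 160683 and 95113 in P-SSC 1, 2+5 and 4 (log2 difference -13.73 ± 1.71, adjusted p = 0.00033). Igfbp4 was 130237 to 192645 in graft BM-MSCs and 5111 to 39008 in P-SSCs (log2 difference 3.98 ± 0.57, adjusted p = 0.00077). Igfbp5 was 13336 to 27363 in graft BM-MSCs and 35037 to 67819 in P-SSCs (log2 difference -1.22 ± 0.28, adjusted p = 0.012). Of these 3, Igfbp6 and Igfbp4 were also called against P-SSC 4. Single libraries decided the call of Pdgfrb (without P-SSC 2+5 or 4 or graft BM-MSC 1, 3 or 4, adjusted p up to 0.11) and Igfbp5 (without P-SSC 1, adjusted p up to 0.074).

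Axon guidance genes rose in 7 of 32 and fell in 8, with a median of -1.52 (-2.42 against P-SSC 4). Sema7a, a membrane-bound semaphorin, was 271, 359, 269 and 325 in the graft libraries and 0 in all 3 P-SSC libraries (log2 difference 8.25 ± 1.02, adjusted p = 0.00032), at least 93.2-fold higher. The secreted semaphorins Sema3c, Sema3e and Sema3a fell, and Sema3c was 0 in all 4 graft libraries and 11460.0, 5625 and 9781 in the P-SSC libraries (log2 difference -13.07 ± 1.02, adjusted p = 2.6e-05). Ntn1, netrin 1, was 0 in all 4 graft libraries and 923, 743 and 4358 in the P-SSC libraries (log2 difference -10.49 ± 1.01, adjusted p = 8.1e-05). The netrin receptor Unc5b was 1023, 508, 652 and 552 in the graft libraries and 47.8, 2.55 and 151 in the P-SSC libraries (log2 difference 4.47 ± 1.09, adjusted p = 0.017). Ntn1 was called against P-SSC 4, and Unc5b, for which P-SSC 4 was the highest P-SSC library, was not (adjusted p = 0.45). In fits that lacked 1 library the count of lower genes was 5 without P-SSC 1 or 4.

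Cell adhesion molecules rose more often than they fell. Of 25 cadherins, connexins and related molecules, 8 rose and 3 fell, and 7 and 2 of these were called against P-SSC 4. The 8 were Cdh11 (6.80), Cdh2 (4.66), Vcam1 (4.65), Cldn1 (3.10), Cldn10 (2.90), Cadm1 (2.76), Nectin2 (2.45) and Gja1 (1.40). Cdh11, osteoblast cadherin, was 17325, 8383, 15697 and 21779 in graft BM-MSC 1 to 4 and 44.7, 89.2 and 578 in P-SSC 1, 2+5 and 4 (log2 difference 6.80 ± 0.73, adjusted p = 0.00014). Cdh2, N-cadherin, was 2537, 1944, 2169 and 959 in the graft libraries and 28.0, 77.7 and 154 in the P-SSC libraries (log2 difference 4.66 ± 0.55, adjusted p = 0.00025). For both, every graft library was above every P-SSC library, and P-SSC 4 was the nearest. Vcam1, a ligand of leukocyte integrins that marrow stroma displays, was 32241 to 46954 in graft BM-MSCs and 840.4 to 2422 in P-SSCs (log2 difference 4.65 ± 0.32, adjusted p = 1.5e-05). Gja1, connexin 43, was 14159 to 22107 in graft BM-MSCs and 5777 to 7337 in P-SSCs (log2 difference 1.40 ± 0.19, adjusted p = 0.00062). In the other direction, Cdh13, T-cadherin, which is anchored by lipid, was 0 in all 4 graft libraries and 3712, 2915 and 2782 in the P-SSC libraries (log2 difference -11.60 ± 0.90, adjusted p = 2.6e-05), at least 1276-fold lower. Cadm3, which nerve cells and Schwann cells use, was 0 in all 4 graft libraries and 491, 1335 and 766 in the P-SSC libraries (log2 difference -9.64 ± 1.11, adjusted p = 0.00022). With 1 library left out, the call was lost for Cldn10 (without any P-SSC library or graft BM-MSC 2 or 3, adjusted p up to 0.16).

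Contractile and pericyte genes were lower in 8 of 23 and higher in 3, with a median of -1.61 (-1.34 against P-SSC 4). Myh11, smooth muscle myosin, was 0, 94.4, 0 and 0 in the graft libraries and 3213, 3543 and 1373 in the P-SSC libraries (log2 difference -9.64 ± 2.45, adjusted p = 0.021). Cspg4, the pericyte antigen NG2, was 0, 0, 40.3 and 0 in the graft libraries and 1094, 1043 and 1000.4 in the P-SSC libraries (log2 difference -8.69 ± 1.32, adjusted p = 0.0011). Mcam, CD146, was 0 in all 4 graft libraries and 372, 967 and 393 in the P-SSC libraries (log2 difference -9.03 ± 1.86, adjusted p = 0.0068). Vim, vimentin, fell without a 0 in any library and was 5861 to 10674 in graft BM-MSCs and 41075 to 61552 in P-SSCs (log2 difference -2.58 ± 0.22, adjusted p = 4.4e-05). Tpm1, a tropomyosin, rose and was 16487, 13969, 14198 and 13553 in the graft libraries and 2799, 3587 and 2551 in the P-SSC libraries (log2 difference 2.30 ± 0.17, adjusted p = 2.1e-05). Tpm2 fell and was 581 to 1229 in graft BM-MSCs and 2375 to 6647 in P-SSCs (log2 difference -2.19 ± 0.47, adjusted p = 0.0084). Acta2, smooth muscle actin, was 3323, 0, 0 and 1416 in the graft libraries and 14413, 22978 and 7454 in the P-SSC libraries and was not called (adjusted p = 0.11). The skeletal muscle markers Acta1, Ckm, Pax7 and Myod1, at 0 in the grafts, were lower beside this list, and their part in it was not tested. Leaving out 1 library ended the call of Myh11 (without P-SSC 1 or 2+5, adjusted p up to 0.085), Ckm (without P-SSC 1, adjusted p up to 0.055) and Myod1 (without P-SSC 2+5 or 4 or graft BM-MSC 1, adjusted p up to 0.084).

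Genes for iron transport rose in 5 of 16 and fell in 1, with a median of 0.89 (1.48 against P-SSC 4). Hp, haptoglobin, which binds free haemoglobin, was 146949, 284773, 306676 and 91423 in graft BM-MSC 1 to 4 and 286, 178 and 15.5 in P-SSC 1, 2+5 and 4 (log2 difference 10.93 ± 0.83, adjusted p = 2.2e-05). Trf, transferrin, which carries iron in plasma, was 75207, 37036, 34571 and 106779 in the graft libraries and 2193, 3354 and 1461 in the P-SSC libraries (log2 difference 4.68 ± 0.41, adjusted p = 4.7e-05). Both were called against P-SSC 4, 13.45 (adjusted p = 2.4e-05) and 5.28 (adjusted p = 0.0015). Slc40a1, the iron exporter ferroportin, was 1494 to 2673 in graft BM-MSCs and 77.7 to 100.8 in P-SSCs (log2 difference 4.61 ± 0.43, adjusted p = 7.2e-05). Cp, ceruloplasmin, was 13753 to 27010.2 in graft BM-MSCs and 647 to 1849.9 in P-SSCs (log2 difference 4.13 ± 0.35, adjusted p = 4.4e-05). Steap3, an endosomal iron reductase, was 0, 28.7, 79.6 and 44.9 in the graft libraries and 14026, 14684 and 5941 in the P-SSC libraries (log2 difference -9.20 ± 1.29, adjusted p = 0.00070). Red cell markers were higher in the same libraries (123 to 1908 against 10.4 to 75.2 ppm), with the highest sum in graft BM-MSC 2, and their part in these changes was not tested. When each library was left out in turn, the count of higher genes was 8 without graft BM-MSC 1.

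In the list of interferon response and antigen presentation 9 of 40 rose and 2 fell, with a median of 0.39 (1.17 against P-SSC 4), and 7 of the 9 were called against P-SSC 4. B2m, the light chain of class I molecules, was 110090.3, 126299, 96051 and 93544 in graft BM-MSC 1 to 4 and 16722, 19359 and 8803 in P-SSC 1, 2+5 and 4 (log2 difference 2.90 ± 0.28, adjusted p = 8.0e-05), and the group means differed 7.12-fold. The heavy chain gene H2-K1 was 60255 to 89325 in graft BM-MSCs and 7836 to 17830.0 in P-SSCs (log2 difference 2.51 ± 0.28, adjusted p = 0.00020). H2-D1 was 160712 to 233185 in graft BM-MSCs and 33709.8 to 47981 in P-SSCs (log2 difference 2.32 ± 0.22, adjusted p = 8.1e-05), although class I genes are near copies and may share reads. The immunoproteasome subunits Psmb8 and Psmb9 rose, and Psmb9 was 2232 to 4286 in graft BM-MSCs and 342 to 1243 in P-SSCs (log2 difference 1.92 ± 0.46, adjusted p = 0.015). Iigp1, an interferon-induced GTPase, was 6836, 3207, 2713 and 7612 in the graft libraries and 404, 63.7 and 74.6 in the P-SSC libraries (log2 difference 5.20 ± 0.63, adjusted p = 0.00030). The genes that fell were Ifi35, an interferon-induced protein, and Tapbp, tapasin, which helps to load class I molecules. Ifi35 was 686 to 972 in graft BM-MSCs and 1139 to 1855 in P-SSCs (log2 difference -1.02 ± 0.30, adjusted p = 0.042). Tapbp was 9642 to 13156 in graft BM-MSCs and 13304 to 24092 in P-SSCs (log2 difference -0.75 ± 0.22, adjusted p = 0.043), and neither was called against P-SSC 4, -0.57 (adjusted p = 0.49) and -0.22 (adjusted p = 0.68). The interferon targets Isg15 and Ifit1 were not called, with Isg15 at 389 to 1193 in graft BM-MSCs and 85.3 to 559.9 in P-SSCs (adjusted p = 0.13). Ifit1 was 0 to 1047 in graft BM-MSCs and 218 to 2667 in P-SSCs (adjusted p = 0.44). The count of higher genes was 5 after median centring, 13 after quantile normalization and 15 after the GC correction, which left no gene lower. Over the fits without 1 library, the count of lower genes was 0 without P-SSC 1 or 2+5 or graft BM-MSC 3 or 4, 1 without graft BM-MSC 2 and 5 without P-SSC 4. The call rested on single libraries for Psmb8 (without P-SSC 2+5 or 4 or graft BM-MSC 1, 2 or 3, adjusted p up to 0.079), Ifi35 (without P-SSC 1 or 2+5 or graft BM-MSC 2, 3 or 4, adjusted p up to 0.15) and Tapbp (without P-SSC 1 or 2+5 or any graft library, adjusted p up to 0.18).

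Counts of metabolic genes depended on the scaling. Of 31 genes of glucose uptake and glycolysis, 3 rose and 10 fell, with a median of -1.10 (-0.74 against P-SSC 4). Pkm, pyruvate kinase, was 4164, 1854, 3902 and 2698 in the graft libraries and 13331, 17077 and 11944 in the P-SSC libraries (log2 difference -2.22 ± 0.29, adjusted p = 0.00043). It was the one of the 10 lower genes also called against P-SSC 4, -1.99 (adjusted p = 0.023). Ldhb, a lactate dehydrogenase subunit, rose and was 3023, 1211, 3072 and 2228 in the graft libraries and 540.1, 670.0 and 478 in the P-SSC libraries (log2 difference 2.00 ± 0.35, adjusted p = 0.0028). Its difference from P-SSC 4 was 2.22 (adjusted p = 0.033). The count of lower genes was 4 after quantile normalization and 2 after the GC correction, and in leave-one-out fits the count of lower genes was 6 without P-SSC 1. Respiratory chain subunits rose in 2 of 45 (4.44%) and fell in 4 (8.89%), near the 6.08% and 12% over all genes. Their median of -0.23 turned to 0.18 against P-SSC 4 and 0.22 after quantile normalization. After the GC correction none was lower, and the count of higher genes was 0 without P-SSC 1, 1 without graft BM-MSC 2 or 4 and 4 without P-SSC 4, and the count of lower genes was 2 without P-SSC 1 or 2+5 and 11 without P-SSC 4.

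Counts of ribosomal protein genes depended on the P-SSC libraries compared. Of 53 tested, 11 fell, none of them against P-SSC 4 alone, and the median was -0.65 over the 3 P-SSC libraries and -0.06 against P-SSC 4. The GC correction left none lower and turned the median to 0.23. Across leave-one-out fits the count of lower genes was 2 without P-SSC 2+5, 3 without P-SSC 1 or graft BM-MSC 4, 4 without graft BM-MSC 3, 6 without graft BM-MSC 1 and 33 without P-SSC 4. Rpl4, of the large subunit, was 4454, 2522, 4524 and 3805 in the graft libraries and 14155, 17392 and 9596 in the P-SSC libraries (log2 difference -1.84 ± 0.28, adjusted p = 0.0012), and P-SSC 4 was the lowest P-SSC library.

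Of 42 antioxidant and detoxification genes, 6 rose and 11 fell, with a median of -0.18 (-0.22 against P-SSC 4) that was 0.60 after the GC correction, where 8 were higher and 3 lower. Aldh1a1, a retinal dehydrogenase, was 0 in all 4 graft libraries and 2964, 2199.9 and 1997 in the P-SSC libraries (log2 difference -11.20 ± 1.26, adjusted p = 0.00020), at least 971-fold lower. Gstm1, a glutathione transferase, was 5316, 12329.6, 11089.7 and 5570.3 in the graft libraries and 59747, 80919.7 and 36075 in the P-SSC libraries (log2 difference -2.81 ± 0.36, adjusted p = 0.00039). Cyp1b1, a cytochrome P450, rose and was 10924, 10494, 13091 and 15918 in the graft libraries and 1569, 585 and 1231 in the P-SSC libraries (log2 difference 3.58 ± 0.33, adjusted p = 6.4e-05). All 3 were called against P-SSC 4, -10.96 (adjusted p = 0.0078), -2.18 (adjusted p = 0.028) and 3.34 (adjusted p = 0.0042). Sod1, superoxide dismutase, was 715 to 865 in graft BM-MSCs and 1193 to 2729.8 in P-SSCs (log2 difference -1.17 ± 0.31, adjusted p = 0.024). Gpx1, glutathione peroxidase, was 8731 to 10964 in graft BM-MSCs and 19365 to 36777 in P-SSCs (log2 difference -1.50 ± 0.28, adjusted p = 0.0037). Neither was called against P-SSC 4 alone, -0.64 (adjusted p = 0.39) and -1.01 (adjusted p = 0.16), or after the GC correction. A single left-out library ended the call of Sod1 (without P-SSC 1 or 2+5, adjusted p up to 0.082).

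Of 38 cell cycle genes, Cdc6, a licensing factor of replication, was the single call, 0 in all 4 graft libraries and 27, 35.7 and 53.3 in the P-SSC libraries (log2 difference -5.26 ± 1.02, adjusted p = 0.0050), which was lost after quantile normalization (adjusted p = 0.11). As to single libraries, the count of higher genes was 1 without graft BM-MSC 3 and 2 without graft BM-MSC 2, and the count of lower genes was 3 without graft BM-MSC 4. Of 20 inhibitors and kinases of the G1 phase, 3 fell. Cdkn1a, the inhibitor p21, was 819, 1256, 882 and 609 in graft BM-MSC 1 to 4 and 10318, 8099 and 4628 in P-SSC 1, 2+5 and 4 (log2 difference -3.08 ± 0.34, adjusted p = 0.00018). Each graft library was below each P-SSC library, and the gene was called against P-SSC 4, -2.42 (adjusted p = 0.0073). Cdkn1c, the inhibitor p57, was 816, 1525, 1251 and 633 in the graft libraries and 147, 217 and 1423 in the P-SSC libraries (log2 difference 1.48 ± 0.75, adjusted p = 0.20). P-SSC 4 was within the range of the grafts, and without that library the gene was called higher (adjusted p = 0.010). Cdk4 was 4089.7 to 4235 in graft BM-MSCs and 3621 to 5709 in P-SSCs (log2 difference -0.13 ± 0.19, adjusted p = 0.66), with a direction that turned after quantile normalization and the GC correction.

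Of 28 immediate early genes, which respond to dissociation of a tissue among other stimuli, 2 rose (7.14%) and 5 fell (17.9%). The shares over all genes were 6.08% and 12%. The median of the list was -0.10 (-0.28 against P-SSC 4), and quantile normalization turned it to 0.44. Atf3, a stress factor, was 79.1, 734, 538 and 958 in the graft libraries and 17579, 20556 and 7416 in the P-SSC libraries (log2 difference -5.06 ± 0.79, adjusted p = 0.0013), and its difference from P-SSC 4 was -4.15 (adjusted p = 0.077). Klf4 was 187, 230.2, 42.3 and 197 in the graft libraries and 1207, 1799 and 2889 in the P-SSC libraries (log2 difference -3.73 ± 0.71, adjusted p = 0.0044), and against P-SSC 4 the difference was -4.38 (adjusted p = 0.032). Fos and Egr1, a pair of early responders, gave no call. Fos was 26928 to 161157 in graft BM-MSCs and 80967 to 151803 in P-SSCs (adjusted p = 0.61). Egr1 was 15279 to 72136 in graft BM-MSCs and 3222 to 36250.4 in P-SSCs (adjusted p = 0.051). With single libraries left out the count of higher genes was 0 without P-SSC 1 or 2+5 or graft BM-MSC 2, 3 or 4 and 7 without P-SSC 4, and the count of lower genes was 2 without P-SSC 1 or 2+5 and 3 without graft BM-MSC 1 or 3.

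Of 26 heat shock proteins and chaperones, 10 fell and none rose, 5 also against P-SSC 4. Bag3, a partner of heat shock protein 70, was 329, 220.1, 871 and 534 in the graft libraries and 5379, 5802 and 3601 in the P-SSC libraries (log2 difference -3.49 ± 0.44, adjusted p = 0.00034). Hsp90ab1 was 8292 to 11651 in graft BM-MSCs and 24629 to 25865 in P-SSCs (log2 difference -1.37 ± 0.18, adjusted p = 0.00044). The groups did not overlap for either gene. After the GC correction 2 genes were lower and 2 higher, and in leave-one-out fits the count of higher genes was 1 without graft BM-MSC 1 and 2 without P-SSC 4, and the count of lower genes was 6 without P-SSC 1.

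Nuclear hormone receptors rose in 2 of 24 (8.33%) and fell in 4 (16.7%), near the 6.08% and 12% over all genes. Their median was 0.63 (-0.61 against P-SSC 4). Vdr, the vitamin D receptor, was 2390.3, 2669.8, 2085 and 1725 in the graft libraries and 211, 418 and 119 in the P-SSC libraries (log2 difference 3.31 ± 0.40, adjusted p = 0.00029), and against P-SSC 4 the difference was 4.19 (adjusted p = 0.0012). Rarg, a retinoic acid receptor, was 270.0, 238, 441 and 373 in the graft libraries and 1979, 2219 and 1448 in the P-SSC libraries (log2 difference -2.53 ± 0.37, adjusted p = 0.00083), and against P-SSC 4 it was -2.17 (adjusted p = 0.028). In fits that lacked 1 library the count of higher genes was 1 without P-SSC 1 or 2+5 or graft BM-MSC 1 and 5 without P-SSC 4.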

How the data were processed

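Sorted stromal cells of 10 libraries were sequenced as messenger RNA captured by poly-T. Per the submitters' processing notes, the authors used FastQC 0.11.5, cutadapt 1.15, STAR 2.5, featureCounts of Subread 1.4.6 and DESeq2 1.26.0 on GRCm39, whereas the methods of the study name GRCm38; annotation release, strand setting and any filter are not given in the sources used here. The labels do not say whether the libraries kept strand, so reads of overlapping and antisense genes may be mixed. The deposited values are a signal, gene counts divided by a size factor per library; they were reduced to whole reads (100% of values within 0.1 of a whole number in all 10 libraries), and each pair of libraries differed by more than sampling noise.

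Genes with a mean of at least 10 (13644 of 15078) were tested on log2(value + 1) with limma 3.58.1 (R 4.3.3), with 1 mean for each of 3 groups of samples, 7 residual degrees of freedom, a mean-variance trend and Benjamini-Hochberg adjustment at 0.05. P-SSC 4 was set as a group of its own for the second comparison, in which it is 1 library and is taken to vary like the other groups. Alternatives were edgeR 4.0.16 and DESeq2 1.42.0 on the whole reads, median centring, quantile normalization, a loess correction for GC content (span 0.3, 99.8% of genes with a GC value), pseudocounts of 0.1 and 5, other filters, the 7 libraries alone, a replicate block, and each library left out. Scripts were tested on simulated data, where the share of false calls was above the nominal level in the fit against P-SSC 4 alone and with DESeq2, so adjusted p-values of both are too small there. The members and lists were chosen with earlier results of these data known.

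Genes were named by rule, up to 2 rises and 2 falls per list and 12 each over all genes, among those called with a mean of at least 100, no overlap between the groups and all 4 grafts on 1 side of P-SSC 4; where a list had none, its 2 members with the highest mean were named. Sort genes, marker lists and Sod1, Gpx1, Cdkn1a, Cdkn1c and Cdk4 were added, and other genes named were chosen after their values were seen. Some genes of the lists are not reported here by name. A fold against a group at 0 was computed against 3 reads in each library of that group. Promoters and gene names came from RefSeq.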

Additional observations from a re-analysis of the deposited data

Results flagged for a closer look

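In each case a single graft library stood apart from the other 3 graft libraries, by Dixon's ratio of gap to range on the log2 scale, above its critical value. The test was run on 123 named genes, and 19 were flagged. Where the other 3 graft libraries all listed 0, as for Cilp, the ratio is 1 whatever the remaining value. The usual rate of about 1 in 20 groups flagged by chance does not hold there, so the number flagged is not compared with it. The part of other cells or of depth in these values was not tested.

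Where the library that stood apart was graft BM-MSC 3, the values there were 129.9 for Pi16, 103.7 for Cd55, 116.8 for Ly6c1, 3.02 for Dkk2, 2117 for Notch3 and 42.3 for Klf4. All but Klf4 were above the other grafts. Graft BM-MSC 1 was high for Peg3 (180.8), Bmp7 (45.8), Mmp3 (6.21) and Adamtsl1 (38.4). Graft BM-MSC 4 was high for Clec3b (22.4), Cilp (12.1) and Fbln2 (248.6). Graft BM-MSC 2 was high for Myh11 (94.4) and Chad (243.7), was at 0 for Osr1 and Hspa1a, and held 7386 for Ndufa4 and 127.3 for Lss. In most of the high cases the other 3 graft libraries listed the gene at or near 0, and the P-SSC libraries were far above the value.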

How the results depend on the processing

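The calls against the 3 P-SSC libraries numbered 2464 (830 higher, 1634 lower). Without 1 library they ranged from 1583 (without P-SSC 1) to 3005 (without P-SSC 4), with 529 to 1429 higher and 1054 to 1731 lower. With edgeR there were 1531 calls (942 lower), with an adjusted p under 0.01 1332 (435 higher, 897 lower), and against P-SSC 4 alone 1081 (382 higher, 699 lower). The GC correction gave 1567 higher and 985 lower, and quantile normalization 1247 higher. The fit of the 7 libraries gave 1696 calls (531 higher, 1165 lower). DESeq2 gave 1200 higher and 1708 lower genes, and 6 of the 123 named genes had no adjusted p there. The count against P-SSC 4, 1081, was 602 with edgeR, 547 with an adjusted p under 0.01, and 1083 to 1188 in leave-one-out fits.

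The replicate block (shared numbers 1 and 4, from different mice) gave 269 calls (140 higher, 129 lower), 263 of them among the 2464. The deviations of graft BM-MSC 1 and P-SSC 1 had r = 0.0056 and those of graft BM-MSC 4 and P-SSC 4 r = 0.028, so the numbers are not taken as pairs.

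Of the 123 named genes, 77 kept their direction and their side of the threshold against P-SSC 4 alone, 108 after the GC correction, 104 with edgeR, 115 after quantile normalization, 119 after median centring and 104 to 119 with 1 library left out. Hoxa7 was 0.96 with the correction for GC content, 0.018 with edgeR, 0.0041 with quantile normalization, 0.11 with the block, 0.76 against P-SSC 4 and between -0.40 and 0.25 in leave-one-out fits, with the sign reversed without P-SSC 1 (0.25) or 2+5 (0.10) or graft BM-MSC 3 (0.13) or 4 (0.013). Cdk4 was 0.87 with the correction for GC content, 0.29 with quantile normalization, 0.0048 with the block, 0.026 without P-SSC 2+5 and 0.20 against P-SSC 4. Hoxa10 was -0.036 without P-SSC 2+5 and -0.89 against P-SSC 4, and Cdkn1c was -0.51 against P-SSC 4. After the GC correction Tapbp was 0.18 and Atp5b 0.043. The cause was not tested. Depth limits genes at 0: 3 reads are 0.119 to 0.195 ppm. That limit covers counting error only, and graft libraries also listed 0 for genes with at least 100 in every other graft.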

Other observations

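Imprinted genes, which are used from the copy of 1 parent, formed a list of 15 tested genes not described above. Of them 1 rose, Gnas, and 7 fell, and 3 of the 7 also fell against P-SSC 4. Dlk1, a membrane protein of progenitor cells, was 0 in all 4 graft libraries and 26.0, 8.92 and 58.2 in the P-SSC libraries (log2 difference -4.65 ± 1.30, adjusted p = 0.032). H19, a long noncoding RNA, was 0 in all 4 graft libraries and 304, 322 and 174 in the P-SSC libraries (log2 difference -8.02 ± 1.01, adjusted p = 0.00036). Meg3, another such RNA, was 0, 0, 18.1 and 0 in the graft libraries and 178, 299 and 58.2 in the P-SSC libraries (log2 difference -6.13 ± 1.26, adjusted p = 0.0068). Gnas, a G protein subunit, was 482 to 644 in graft BM-MSCs and 30.6 to 208 in P-SSCs (log2 difference 2.96 ± 0.79, adjusted p = 0.027). For this list the count of higher genes was 0 without P-SSC 1 or 2+5 and 2 without P-SSC 4. With 1 library left out, the call was lost for Gnas (without P-SSC 1 or 2+5 or graft BM-MSC 3, adjusted p up to 0.10) and Dlk1 (without P-SSC 1 or 4 or any graft library, adjusted p up to 0.090).

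Several genes among the largest changes belonged to no list. Slc26a7, an anion exchanger, was 1145, 2681, 3308 and 1945 in the graft libraries and 0, 0 and 0.969 in the P-SSC libraries (log2 difference 10.72 ± 0.56, adjusted p = 1.9e-06). Il1rn, the antagonist of the interleukin 1 receptor, was 9393, 5371, 8035 and 35052 in the graft libraries and 1.04, 65 and 0 in the P-SSC libraries (log2 difference 11.06 ± 1.25, adjusted p = 0.00020). Akr1c12, an aldo-keto reductase with close paralogs that may share its reads, was 897, 1289, 1738 and 1329 in the graft libraries and 0 in all 3 P-SSC libraries (log2 difference 10.32 ± 0.63, adjusted p = 6.3e-06). These 3 rose. Tubb4a, a tubulin, fell and was 0 in all 4 graft libraries and 8796, 13695 and 6453 in the P-SSC libraries (log2 difference -13.17 ± 0.88, adjusted p = 1.2e-05).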
